A study of Mus musculus with 10 samples.

Results

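Glucocorticoid-induced target genes were examined in mice homozygous for a nonsense mutation of *Zbtb16*, in RNA of the prefrontal cortex (PFC). The 10 genes were *Sgk1*, *Fkbp5*, *Tsc22d3*, *Nfkbia*, *Ddit4*, *Sult1a1*, *Mfsd2a*, *Cebpd*, *Pdk4* and *Rasd1*, of 22000 genes in the count table, and all 10 were among the 14344 genes that passed the filter on low counts. They were selected by name, with the KO against WT result of these same libraries already known: every one of them is called higher in KO in the model that includes surrogate variables. Their difference between genotypes is therefore given as a description and supports nothing by itself.

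Glucocorticoids (corticosterone in mice) are adrenal steroid hormones that reach the brain from the blood, with a daily rhythm and after stress. They bind the glucocorticoid receptor (encoded by *Nr3c1*) and the mineralocorticoid receptor (*Nr3c2*), which are held by HSP90 and its co-chaperones in the cytoplasm, move to the nucleus and bind DNA at inverted pairs of a 6-base half-site. The genes that respond include kinases, feedback regulators of the receptor, inhibitors of inflammatory signaling and regulators of energy use, and several are expressed in brain endothelial cells and glia as well as in neurons.

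PFC RNA from 10 mice, all 7 weeks old and labelled male, was measured by stranded mRNA sequencing, with 1 library for each animal. KO mice (n = 5) were homozygous for the luxoid (*lu*) allele of *Zbtb16* (strain B6.C3-*Zbtb16lu*/J), a spontaneous nonsense point mutation that every cell of the body carries, not the PFC alone. WT mice (n = 5) carried the normal gene, and the labels list no drug, hormone or stressor for either group. Libraries held 30220122 to 51231439 counts. A floor of 3 counts corresponds to 0.0586 to 0.0993 CPM (counts scaled to a common library size), which covers counting error only. The RNA integrity number (RIN) was 9.5 to 9.8 in 6 mice (KO mice 1, 2 and 4 and WT mice 1, 2 and 5) and 8.1 to 8.3 in 4 mice (KO mice 3 and 5 and WT mice 3 and 4). *Zbtb16* itself had 49.1, 50.7, 42.1, 52.8 and 42.2 CPM in KO mice 1 to 5 and 84.0, 88.3, 73.9, 70.7 and 77.9 CPM in WT mice 1 to 5, with every KO mouse below every WT mouse. KO mouse 3 went against its label: it had 1 count in total for *Uty*, *Kdm5d*, *Eif2s3y* and *Ddx3y* on the Y chromosome, where the other 9 mice had 4376 to 8182, so results are also given without it. Markers of cortical excitatory neurons summed to 5283 to 6579 CPM per mouse, and the marker sums of endothelial cells, oligodendrocytes, astrocytes, microglia, mural cells and fibroblasts, choroid plexus, striatal neurons and blood overlapped between the genotypes. In bulk tissue, fewer cells of a type and less RNA per cell cannot be told apart.

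In Gencode M21 (GRCm38) the genes lie on separate chromosomes, apart from *Sgk1* and *Ddit4* on the same one: *Sgk1* at chr10:21882184-21999903 (plus strand), *Ddit4* at chr10:59949669-59951834 (minus strand), *Fkbp5* at chr17:28399094-28517527 (minus strand), *Tsc22d3* at chrX:140539528-140600659 (minus strand), *Nfkbia* at chr12:55489410-55492647 (minus strand). The other five are *Sult1a1* at chr7:126672865-126676432 (minus strand), *Mfsd2a* at chr4:122946850-122961188 (minus strand), *Cebpd* at chr16:15887286-15891031 (plus strand), *Pdk4* at chr6:5483351-5496309 (minus strand) and *Rasd1* at chr11:59963181-59964944 (minus strand).

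Since the receptor binds sequence, the promoters of the genes were read for its half-site, TGTTCT or its reverse complement AGAACA, on both strands. RefSeq (GRCm38.p6) windows from 250 bases before to 50 bases after each transcription start were at hand for 8 of the 10 genes, in 15 windows, but not for *Cebpd* or *Rasd1*. The windows of 4 genes are shown, 5′ to 3′ along the gene. That of *Sgk1* holds the inverted pair, that of *Sult1a1* 2 half-sites that are not paired, and that of *Tsc22d3* 1. That of *Pdk4*, the gene whose levels were apart between genotypes, holds none. Capitals mark half-sites.
Sgk1 (chr10:21993640-21993939, plus strand): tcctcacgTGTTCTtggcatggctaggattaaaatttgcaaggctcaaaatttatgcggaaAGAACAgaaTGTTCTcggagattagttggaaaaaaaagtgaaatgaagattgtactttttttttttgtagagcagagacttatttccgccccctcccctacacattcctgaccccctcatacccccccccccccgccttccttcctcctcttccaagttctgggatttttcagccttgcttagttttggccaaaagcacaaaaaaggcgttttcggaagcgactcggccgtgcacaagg
Sult1a1 (chr7:126676369-126676668, minus strand): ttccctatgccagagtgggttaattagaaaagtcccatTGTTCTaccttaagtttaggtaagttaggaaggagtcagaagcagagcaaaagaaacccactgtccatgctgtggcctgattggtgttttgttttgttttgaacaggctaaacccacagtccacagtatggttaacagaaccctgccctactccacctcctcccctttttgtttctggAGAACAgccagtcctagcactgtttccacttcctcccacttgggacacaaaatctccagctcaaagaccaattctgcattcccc
Tsc22d3 (chrX:140600473-140600772, minus strand): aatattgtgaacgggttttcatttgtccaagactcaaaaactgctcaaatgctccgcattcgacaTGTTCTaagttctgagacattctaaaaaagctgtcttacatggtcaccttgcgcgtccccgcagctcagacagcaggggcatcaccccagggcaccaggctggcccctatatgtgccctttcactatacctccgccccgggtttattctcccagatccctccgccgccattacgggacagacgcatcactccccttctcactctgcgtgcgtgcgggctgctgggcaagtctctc
Pdk4 (chr6:5496229-5496528, minus strand): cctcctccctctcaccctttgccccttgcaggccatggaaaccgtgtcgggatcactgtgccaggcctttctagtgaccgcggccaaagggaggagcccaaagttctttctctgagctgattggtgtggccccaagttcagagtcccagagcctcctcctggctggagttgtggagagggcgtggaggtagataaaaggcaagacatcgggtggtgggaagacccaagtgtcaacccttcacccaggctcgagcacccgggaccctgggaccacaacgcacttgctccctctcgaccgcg

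The *Sgk1* window, 1 of 6 for this gene, held AGAACA, then any 3 bases, then TGTTCT, beginning 189 bases before the start site, plus a separate half-site 242 bases before it. The full inverted pair was present in 3 of 32851 promoter windows (0.00913%), and the relaxed form GNACA, any 3 bases, TGTNC, which overlaps the full one, in 156 (0.475%). Half-sites were common, in 19.0% of all windows and in 5 of the 15 windows of these genes (33.3%). In *Sult1a1* half-sites began 212 and 34 bases before the start. In *Tsc22d3* the window shown held one that began 185 bases before the start, and the other windows of this gene held none. The windows of *Ddit4*, *Fkbp5*, *Mfsd2a*, *Nfkbia* and *Pdk4* held neither form. A match of letters is not a bound site, and receptor sites can lie far outside such windows.

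All 10 genes had higher mean levels in KO than in WT mice, between 110% and 166% of the WT mean. The genes differed in how far the genotypes were apart: only *Pdk4* had every KO mouse above every WT mouse, against 0.899% of all genes tested (129 of 14344). For 6 of the 10, at least 4 of the 5 KO mice lay above the highest WT mouse, as they did for 3.97% of all genes tested (569 of 14344). Levels are given below in CPM scaled by trimmed mean of M-values (TMM), with the mean ± SD of 5 mice per genotype.

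**Figure D1:**
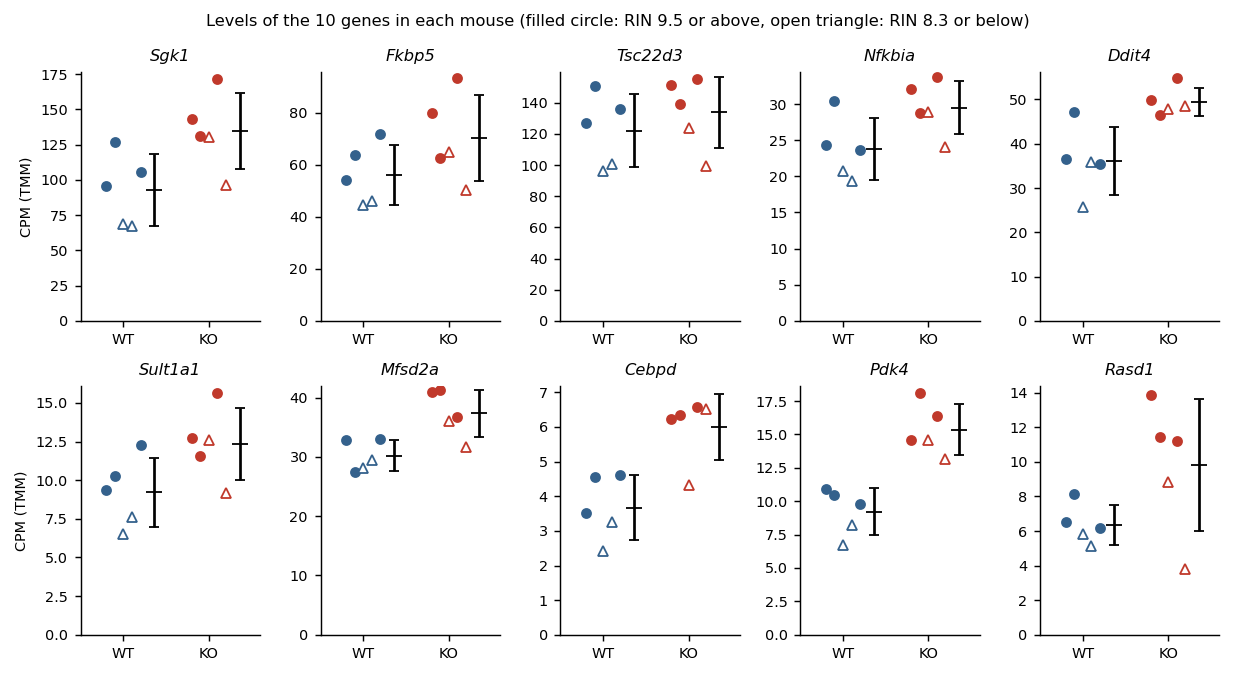
Each panel plots the level of 1 gene (CPM, axis from 0) in the 5 WT and 5 KO mice. Filled circles are mice with a RIN of 9.5 or above, open triangles mice with a RIN of 8.3 or below, and the bar is the mean ± SD of 5 mice. *Pdk4* had no overlap between genotypes. In every gene but *Ddit4* and *Mfsd2a*, and so in *Pdk4* too, the triangles are the lowest WT mice.

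Among the regulators of signaling, *Sgk1* encodes a kinase that acts on ion channels and transporters and is a classic early target of the receptor. It measured 143.3, 130.9, 130.3, 171.4 and 96.3 CPM in KO mice 1 to 5 and 95.4, 126.8, 68.4, 67.4 and 105.4 CPM in WT mice 1 to 5 (134.4 ± 27.0 against 92.7 ± 25.3 CPM). All KO mice but one were above every WT mouse, while KO mouse 5 lay within the WT range. *Rasd1* encodes a dexamethasone-induced small GTPase. Its levels were 13.9, 11.4, 8.82, 11.2 and 3.83 CPM in KO and 6.51, 8.15, 5.81, 5.12 and 6.17 CPM in WT (9.84 ± 3.81 against 6.35 ± 1.13 CPM). The lowest *Rasd1* level of all mice was that of KO mouse 5, and the other KO mice were all above WT, so that the spread was larger in KO.

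*Fkbp5* encodes an immunophilin that binds HSP90 and lowers the hormone affinity of the receptor, which makes it a feedback regulator. It measured 79.99, 62.7, 65.1, 93.3 and 50.4 CPM in KO and 54.3, 63.8, 44.6, 46.2 and 71.8 CPM in WT (70.3 ± 16.6 against 56.1 ± 11.6 CPM), and only KO mice 1 and 4 exceeded the highest WT mouse. *Tsc22d3*, also named *Gilz*, encodes a leucine zipper protein that mediates anti-inflammatory actions. Its levels were 151.5, 139.1, 123.6, 155.5 and 99.1 CPM in KO and 127.1, 150.7, 96.0, 100.8 and 136.0 CPM in WT (133.8 ± 23.0 against 122.1 ± 23.3 CPM), the smallest ratio of KO to WT of the 10 genes, with a difference that lies within the spread of either genotype. *Nfkbia* encodes IκBα, the cytoplasmic inhibitor of NF-κB. It measured 32.1, 28.8, 28.9, 33.7 and 24.1 CPM in KO and 24.4, 30.5, 20.8, 19.3 and 23.7 CPM in WT (29.5 ± 3.69 against 23.7 ± 4.30 CPM). All 5 KO mice were above the WT mean for *Nfkbia*, but WT mouse 2 was above 3 of them.

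Among genes of metabolism and growth, *Ddit4* (also named *Redd1*) encodes a stress-induced inhibitor of mTORC1. It measured 49.9, 46.6, 47.8, 54.8 and 48.6 CPM in KO and 36.5, 47.1, 25.6, 35.8 and 35.5 CPM in WT (49.5 ± 3.17 against 36.1 ± 7.59 CPM). WT mouse 2 alone reached into the narrow KO range. *Pdk4* encodes pyruvate dehydrogenase kinase 4, which limits the entry of pyruvate into the citric acid cycle. Its levels were 14.6, 18.1, 14.6, 16.4 and 13.2 CPM in KO and 10.9, 10.5, 6.71, 8.23 and 9.81 CPM in WT (15.4 ± 1.89 against 9.23 ± 1.74 CPM). *Sult1a1* encodes a sulfotransferase for phenols. It measured 12.7, 11.6, 12.6, 15.6 and 9.20 CPM in KO and 9.34, 10.3, 6.51, 7.65 and 12.3 CPM in WT (12.3 ± 2.33 against 9.21 ± 2.25 CPM), with 3 KO mice above the highest WT mouse.

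*Mfsd2a* encodes the transporter that carries lysophosphatidylcholine with docosahexaenoic acid across the endothelium of the blood-brain barrier. Its levels were 41.0, 41.2, 36.1, 36.8 and 31.7 CPM in KO and 32.8, 27.4, 28.1, 29.5 and 33.0 CPM in WT (37.3 ± 3.93 against 30.2 ± 2.62 CPM). KO mouse 5 lay within the WT range and the other KO mice above it. The 8 endothelial markers summed to 211.1 to 241.7 CPM in KO and 214.4 to 241.5 CPM in WT, and 0 of the 8 were called by edgeR with surrogate variables or by DESeq2 (1 at an unadjusted p under 0.05 in each), with 2 positive fold changes. *Cebpd* encodes a C/EBP transcription factor. It measured 6.24, 6.36, 4.32, 6.58 and 6.53 CPM in KO and 3.52, 4.57, 2.42, 3.25 and 4.61 CPM in WT (6.01 ± 0.954 against 3.67 ± 0.926 CPM), so that KO mouse 3 was in the WT range and the other 4 KO mice lay above it. Behind these levels stood 86 to 7193 counts per gene and library.

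Divided by exon length in kilobases, the WT levels were 28.1 ± 5.37 CPM per kb for *Tsc22d3*, 20.6 ± 4.33 for *Ddit4*, 18.9 ± 5.16 for *Sgk1*, 14.7 ± 2.67 for *Nfkbia* and 13.4 ± 1.16 for *Mfsd2a*. Neighbours among these first 5 did not differ beyond their spread, taken as the sum of both SDs. After a gap came *Sult1a1* (6.11 ± 1.5 CPM per kb) and *Fkbp5* (5.93 ± 1.23), which also did not differ beyond their spread. *Rasd1* (3.94 ± 0.702 CPM per kb), *Pdk4* (2.63 ± 0.495) and *Cebpd* (0.981 ± 0.247) followed, each apart from the next by more than the sum of the SDs. *Sult1a1* and *Cebpd* are uncertain in one respect: 61 exon bases (4.05%) of the former and 562 (15.0%) of the latter overlap exons of *Sgf29* and *Spidr* on the opposite strand, and whether reads were counted by strand is not given in the sources used here.

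The question of the KO against WT contrast is what loss of *Zbtb16* does to expression in the PFC. In the edgeR quasi-likelihood test with 3 surrogate variables (factors estimated from the expression data to absorb unrecorded differences between libraries), all 10 genes were called higher in KO, where 0.6% of all genes tested (86 of 14344) were. Nothing is read from that count, since the genes were chosen on it. The log2 fold changes were largest for *Rasd1* (0.86, SE 0.107, adjusted p = 0.00080), *Pdk4* (0.81, SE 0.107, adjusted p = 0.0013), *Cebpd* (0.79, SE 0.142, adjusted p = 0.0114) and *Sgk1* (0.77, SE 0.0546, adjusted p = 2.62e-06). The values were intermediate for *Sult1a1* (0.60, SE 0.0997, adjusted p = 0.00735), *Ddit4* (0.57, SE 0.0832, adjusted p = 0.0027), *Fkbp5* (0.51, SE 0.0619, adjusted p = 0.00063) and *Nfkbia* (0.47, SE 0.0666, adjusted p = 0.0025). They were smallest for *Mfsd2a* (0.34, SE 0.0720, adjusted p = 0.0371) and *Tsc22d3* (0.30, SE 0.0433, adjusted p = 0.0025). The median over the 10 genes was 0.59, and over all genes tested it was −0.0044.

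Without surrogate variables the same direction was kept by all 10 genes but 1 of 10 was called, *Pdk4* (log2 fold change 0.73, SE 0.125, adjusted p = 0.0316), where 0.153% of all genes were called higher (22 of 14344). At an unadjusted p under 0.05 this fit held 8 of the 10, which were chosen on this contrast, and 1150 of all 14344 genes tested. *Sgk1* fell from 0.77 to 0.53 (SE 0.165, adjusted p = 0.408), *Rasd1* from 0.86 to 0.62 (SE 0.248, adjusted p = 0.581) and *Tsc22d3* from 0.30 to 0.13 (SE 0.128, adjusted p = 0.856). Every one of the 10 log2 fold changes was larger, and every SE smaller, with surrogate variables. With RIN in their place, 2 genes were called (*Sgk1* and *Pdk4*), with 1 surrogate variable 2, with 2 surrogate variables 4 and with 4 surrogate variables 10. Leaving out WT mouse 3 left 6 calls, without *Tsc22d3*, *Sult1a1*, *Mfsd2a* and *Cebpd*. Leaving out KO mouse 3, the mouse with 1 Y-linked count, left 9 calls, *Mfsd2a* being lost at 0.36 (adjusted p = 0.0682).

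**Figure D2:**
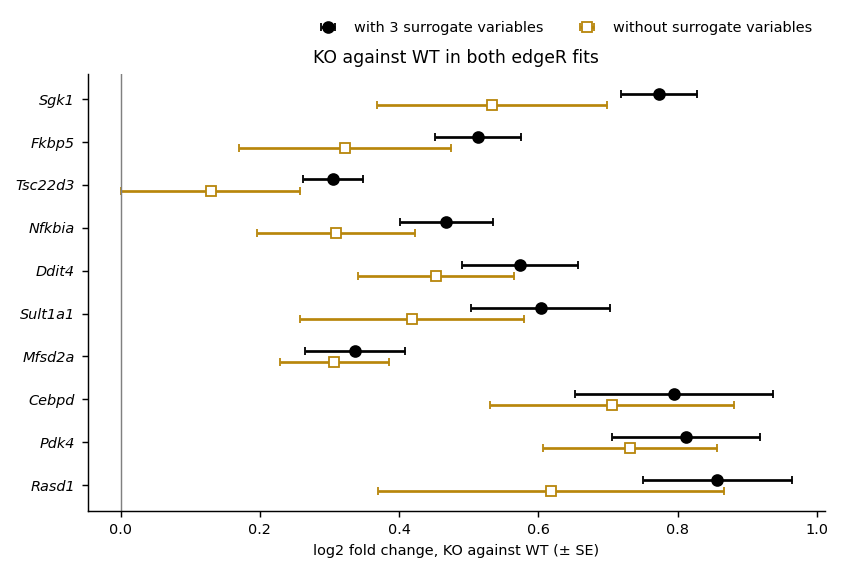
The horizontal axis is the log2 fold change of KO against WT with its SE, for each of the 10 genes. Black circles are the edgeR fit with 3 surrogate variables and open squares the fit without them: all 20 values lie above 0, and the circles have the larger values and the shorter bars.

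Within the mice of higher RIN (3 KO and 3 WT), the mean log2 level was higher in KO for 10 of 10 genes, by 0.11 (*Tsc22d3*) to 0.81 (*Rasd1*). Among the mice of lower RIN (2 KO and 2 WT) it was also higher for 10 of 10, by 0.0921 (*Rasd1*) to 0.91 (*Cebpd*). Both classes are parts of the libraries on which the genes were chosen. The shared direction is therefore a description and not a replication. A fit on the 6 mice of higher RIN alone, without surrogate variables, called 0 of the 10 genes by edgeR and 1 of all 14345 tested. At an unadjusted p under 0.05 were 9 of the 10 and 982 of the 14345. The fit to compare is that of all 10 mice without surrogate variables, which called 1 of the 10.

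The rule also asked how these genes varied together between mice. To keep the genotype difference out, log2 CPM was centred on its genotype mean, and Pearson correlations were tested by exact permutation within genotype (14400 arrangements, smallest possible p 6.94e-05), with Benjamini-Hochberg adjustment over the 45 pairs. Of the 45 pairs, 44 had a positive r, the median r was 0.653, and 13 passed at an adjusted p under 0.05, 19 unadjusted. Over all 102867996 pairs of tested genes, treated the same way, the median r was −0.000975, and 2.31% of them reached the smallest r that passed here (0.716). This covariation is not independent of how the genes were chosen. A gene whose spread within genotype lies along the surrogate variables gains most from a fit that includes them, and a median of 86.3% of that spread lay along the 3 variables for the 10 genes, against 53.9% for all genes tested and 76.3% for the other 76 genes called higher in KO. The 2850 pairs of those 76 genes had a median r of −0.0064, and 49.7% were above 0. The part of the choice of genes in their covariation was not tested.

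Among *Sgk1*, *Fkbp5*, *Tsc22d3*, *Nfkbia* and *Sult1a1*, 9 of the 10 pairs passed. These genes were grouped after the correlations were seen, so the count describes the grouping and supports nothing by itself. *Nfkbia* and *Sult1a1* did not pass (adjusted exact permutation p = 0.08), and *Rasd1*, left out of the group, was in as many passing pairs as *Sult1a1* (3 each). The largest value was that of *Sgk1* and *Tsc22d3* (r = 0.966, exact permutation p = 0.000208, adjusted p = 0.00469, Spearman coefficient = 0.976, adjusted p = 0.00469). *Sgk1* and *Nfkbia* followed (r = 0.959, exact permutation p = 0.000417, adjusted p = 0.00625, Spearman coefficient = 0.952, adjusted p = 0.0115), and *Fkbp5* and *Sult1a1* had r = 0.946 (exact permutation p = 0.000208, adjusted p = 0.00469, Spearman coefficient = 0.964, adjusted p = 0.00312). Without the 2 mice farthest from the median of the first gene, r was 0.938, 0.926 and 0.906 in these 3 pairs. Over all 13 pairs that passed it was 0.466 to 0.950, lowest for *Sgk1* and *Rasd1*, which had 0.716 with all mice. *Rasd1* passed with *Sgk1*, *Tsc22d3* and *Nfkbia*, and *Pdk4* with *Tsc22d3* alone. *Ddit4*, *Mfsd2a* and *Cebpd* were in no pair that passed. *Mfsd2a* had the weakest values, from −0.0335 with *Ddit4* to 0.636 with *Rasd1* (smallest adjusted exact permutation p = 0.134).

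**Figure D3:**
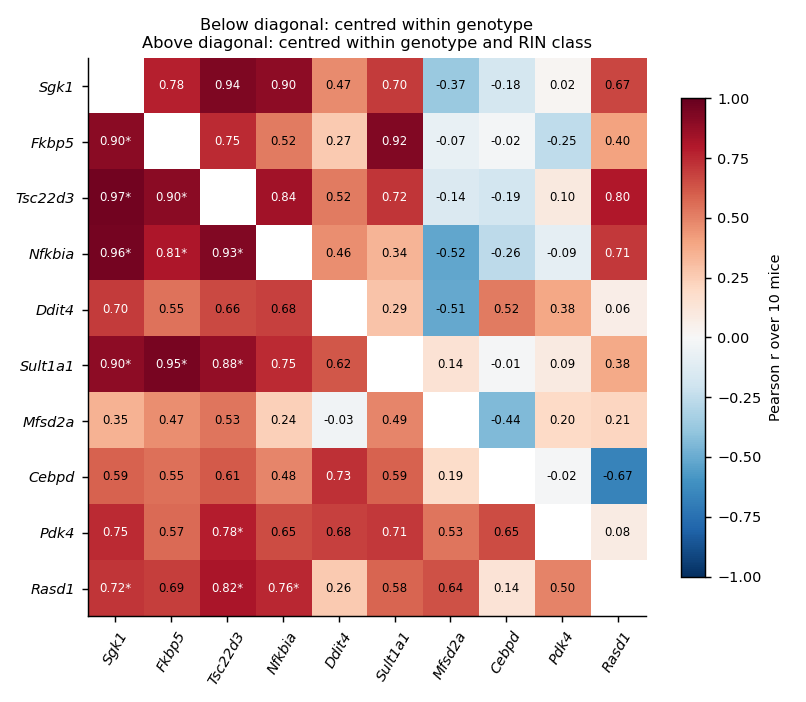
Each square is the Pearson correlation of 2 genes over 10 mice, from −1 (blue) to 1 (red). Squares below the diagonal are centred within genotype, with a star where the adjusted p was under 0.05 (13 of 45). Squares above it are centred within genotype and RIN class, and 15 of all 45 squares above it are at or below 0. The pairs among *Sgk1*, *Fkbp5*, *Tsc22d3*, *Nfkbia* and *Sult1a1*, grouped after the values were seen, are positive in both, from 0.340 to 0.936 above the diagonal.

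Much of this shared variation lay between the RIN classes. A score, the mean over the 10 genes of the centred values scaled to SD 1, was negative in all 4 mice of lower RIN (−0.31 in KO mouse 3, −1.19 in KO mouse 5, −1.27 in WT mouse 3 and −0.70 in WT mouse 4) and positive in all 6 of higher RIN (0.22 to 0.96). The difference between the 2 RIN classes took a median of 58.3% of the spread within genotype of the 10 genes, from 27.5% for *Ddit4* to 83.2% for *Tsc22d3*, against 9.66% for all genes tested. Centred within genotype and RIN class, 0 of the 45 pairs passed (3 unadjusted, 144 arrangements, smallest possible exact p 0.00694), 30 were positive, and the median r was 0.214. Among the 6 mice of higher RIN, 0 passed (3 unadjusted, smallest possible exact p 0.0278) and the median r was 0.365. Of the 13 pairs that had passed, 13 kept a positive r within classes and 12 among the mice of higher RIN. *Sgk1* and *Tsc22d3* had 0.936 within classes and 0.941 among the mice of higher RIN, and *Fkbp5* and *Sult1a1* had 0.923 and 0.946. In contrast, *Tsc22d3* and *Pdk4* fell from 0.785 to 0.0964 within classes and to −0.446 among the mice of higher RIN. In both settings, a single pair at the smallest possible exact p could not pass the adjustment over 45 pairs. The counts of 0 therefore do not decide whether the pooled relation held within RIN classes. The part of RNA integrity in the pooled relation was not tested. Without KO mouse 5 only 4 pairs passed, and without KO mouse 3 it was 11.

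**Figure D4:**
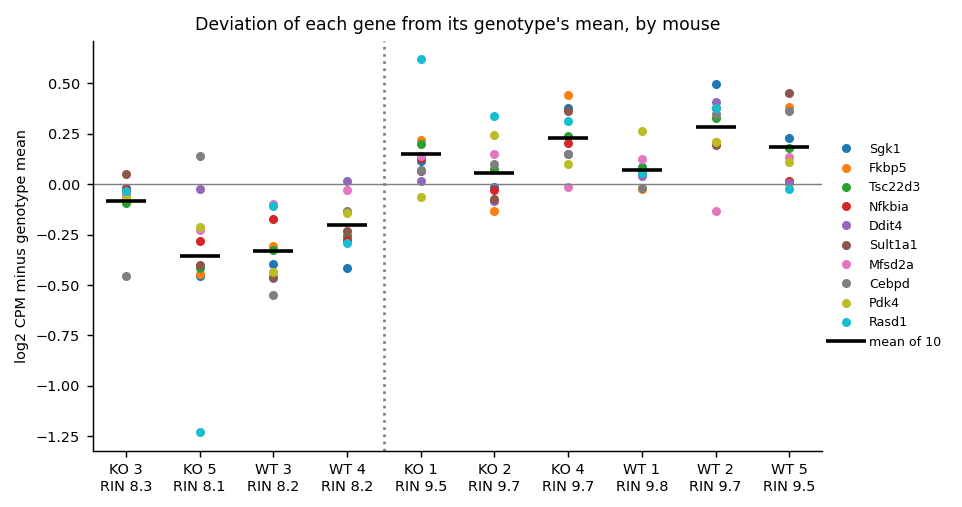
For each mouse (horizontal axis, with its RIN), points show how far each of the 10 genes lay from the mean of its own genotype, in log2 CPM, and the bar is their mean. The 4 mice of lower RIN stand left of the dotted line with means below 0, and KO mouse 5 has the lowest point, *Rasd1* at −1.23.

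Immediate early genes, which follow recent neuronal activity, were set beside these values. With surrogate variables, 0 of the 11 were called by edgeR (4 at an unadjusted p under 0.05, 11 of 11 positive, median log2 fold change 0.35) and 0 by DESeq2. Over all 14344 genes tested by edgeR, 1522 were at an unadjusted p under 0.05 and 48.1% were positive. The summed level of the 11 ran from 889.7 to 1425 CPM in KO and from 544.9 to 1154 CPM in WT. It was highest in KO mouse 3 and WT mouse 4, both with negative scores, and lowest in WT mouse 5, with a positive score (0.69). But WT mouse 3, with the lowest score of all (−1.27), had 651.0 CPM, and KO mouse 5 (−1.19) had 984.2 CPM, inside the KO range. The 5 blood genes summed to 144.5 CPM in KO mouse 5, the mouse lowest in *Rasd1*, and to 27.97 to 59.19 CPM in the other 9 mice. The 8 tested striatal neuron markers summed to 486.3 CPM in KO mouse 4 and 595.8 CPM in WT mouse 5, both with positive scores, and to 296.9 to 459.6 CPM in the other mice. The order did not follow the score among KO mice. KO mouse 5, with the lowest KO score (−1.19), had 459.6 CPM, and KO mouse 1, with a positive score (0.50), had the lowest KO sum (323.8 CPM). Of these 8 markers 0 were called by edgeR with surrogate variables, 4 were at an unadjusted p under 0.05, 6 were positive and the median log2 fold change was 0.19, while DESeq2 called 1, *Tac1* (log2 fold change 0.36, adjusted p = 0.0373). Of the 5 cortical excitatory neuron markers 0 were called by edgeR and 1 was at an unadjusted p under 0.05, while DESeq2 called 1, *Camk2a* (log2 fold change 0.12, adjusted p = 0.0214). Both names were picked after their values were seen. The part of these differences in the result was not tested.

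The members were then set beside 24 other genes known to be induced by glucocorticoids, of which 23 passed the filter and *Slc10a6* did not. With surrogate variables, 3 of 23 were called higher (0.6% of all genes tested were) and none lower. Of the 23 log2 fold changes 22 were positive (48.1% of all genes tested), and their median was 0.16 against −0.0044 for all genes tested. The 23 signs are not independent, since these genes had a median r of 0.694 with the score between mice. Within genotype the score had an r of −0.537, 0.379 and 0.693 with the 3 surrogate variables. The part of the surrogate variables in the shared direction was not tested. *Arl4d*, a small GTPase of the ARF family, measured 26.0 to 33.7 CPM in KO and 12.3 to 27.8 CPM in WT (log2 fold change 0.71, SE 0.124, adjusted p = 0.0101). *Arrdc2*, an arrestin-domain protein, had a log2 fold change of 0.45 (SE 0.0954, adjusted p = 0.0338) and *Rhob* one of 0.22 (SE 0.0387, adjusted p = 0.0110). Without surrogate variables 0 of the 23 were called by edgeR (1 at an unadjusted p under 0.05, 17 of 23 positive, median 0.072). The count was 0 without KO mouse 1, 0 without KO mouse 3, 1 without WT mouse 3, 1 without WT mouse 4 and 5 without KO mouse 2, when *Klf9* and *Per1* were added.

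**Figure D5:**
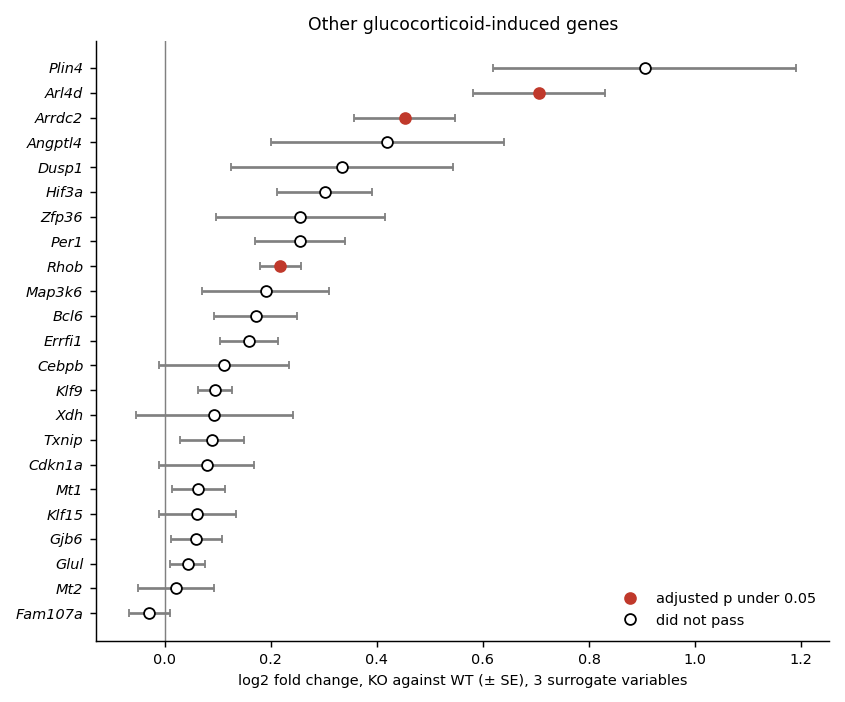
Points are log2 fold changes of KO against WT (horizontal axis, ± SE, edgeR with 3 surrogate variables) for the 23 other glucocorticoid-induced genes tested. Filled points passed at an adjusted p under 0.05 (*Arl4d*, *Arrdc2* and *Rhob*), and 22 of 23 values lie above 0.

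Of the 6 most abundant genes of that list only *Rhob* (281.2 CPM on average), described above, passed. *Glul* (glutamine synthetase of astrocytes, 1741 CPM on average) had a log2 fold change of 0.043 (adjusted p = 0.707), *Fam107a* (551.3 CPM), an actin-associated stress-response gene, −0.028 (adjusted p = 0.859), and *Klf9* (288.9 CPM), a Krüppel-like transcription factor, 0.095 (adjusted p = 0.242). *Mt1* (108.6 CPM), a metallothionein, had 0.064 (adjusted p = 0.724), and *Per1* (107.8 CPM), a clock gene, 0.25 (adjusted p = 0.242). Between mice, most of the list correlated positively with the 10 genes. The median r of the 23 genes with the score was 0.694 and 20 of 23 were above 0, where the median over all other genes was 2.86e-05. These values were not centred within RIN class, and the score itself had an r of 0.915 with RIN within genotype. *Arrdc2* (r = 0.949), *Errfi1* (0.931), *Gjb6* (0.891) and *Fam107a* (0.887) had the highest values, and *Cebpb* (−0.325), *Per1* (−0.283) and *Dusp1* (−0.165) the lowest. *Errfi1*, *Gjb6*, *Cebpb* and *Dusp1* were picked for mention after their values were seen.

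The genes that carry the hormone signal did not pass. Of 10 genes of the receptor pathway, 0 were called by edgeR with surrogate variables and 0 by DESeq2. By edgeR 2 were at an unadjusted p under 0.05 (1522 of all 14344 genes tested were), and the median log2 fold change was −0.0047. *Nr3c1* had 124.0 ± 7.32 CPM in KO and 133.0 ± 6.01 CPM in WT (log2 fold change −0.066, adjusted p = 0.551). *Nr3c2* had a log2 fold change of 0.033 (adjusted p = 0.886) and *Fkbp4*, the co-chaperone opposed to FKBP5, −0.026 (adjusted p = 0.863). *Hsd11b1*, whose enzyme regenerates active corticosterone in tissue, had −0.32 (adjusted p = 0.472), with 15.6 ± 3.47 CPM in KO and 20.5 ± 3.72 CPM in WT. Without surrogate variables *Hsd11b1* had −0.40 (edgeR unadjusted p = 0.0163, adjusted p = 0.520). Between mice *Nr3c1* had an r of 0.051 with the score. Over the 10 pathway genes r was positive for 9, with a median of 0.223 and a range from −0.881 (*Hsp90ab1*, an HSP90 chaperone, named after its value was seen) to 0.511.

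Of all other genes tested, those most like the score over the 10 mice were *Lrrc58* (r = 0.976), *Rcan2* (0.974), *Syt2* (0.973), *Trhr2* (0.973), *Vamp1* (0.971) and *Acsl3* (0.967), all centred within genotype. The least like were *Syn2* (−0.969), *L1cam* (−0.967) and *Otof* (−0.966). They are extremes of 14334 genes and carry no test. *Rcan2* encodes a calcineurin inhibitor, *Syt2* and *Vamp1* proteins of the synaptic vesicle release machinery, and *Acsl3* an acyl-CoA synthetase. Of these 9 genes only *Lrrc58* was called in KO against WT (log2 fold change 0.24, adjusted p = 0.00266). *Zbtb16* also followed the score within genotype (r = 0.833), and it was lower in KO (log2 fold change −0.67, SE 0.0580, adjusted p = 2.80e-05), opposite in sign to the 10 genes. The score itself had an r of 0.915 with RIN within genotype. *Zbtb16* averaged 50.9 CPM in KO mice of higher RIN and 42.1 CPM in those of lower RIN (83.4 and 72.3 CPM in WT). The part of RNA integrity in these correlations was not tested.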

How the data were processed

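PFC RNA of 5 *Zbtb16* KO and 5 WT mice was analysed, 1 library per mouse, grouped by the genotype in the labels. Reads were aligned by the authors to mm10 with STAR (2.7.1a), uniquely mapped reads were kept, and HTSeq (0.9.1) counted them over protein-coding exons in Gencode M21. The values deposited by the authors are these raw counts, for 22000 genes, without normalization. Tool versions are those of the submitters' processing notes. The strand setting is not given in the sources used here, and mice are separate animals of each genotype.

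The 10 genes, the other lists and the tests were chosen with earlier results of these data known. Genes were tested with edgeR (4.0.16, R 4.3.3) by the quasi-likelihood test, after TMM scaling and the filter on low counts, with Benjamini-Hochberg adjustment and a threshold of 0.05, with genotype and 3 surrogate variables from sva (3.50.0, log2(CPM + 1), seed 1) in the model. The study used linear models on normalized values with surrogate variables. Both the edgeR and the correlation scripts were tested on simulated data. Correlations used log2 CPM with a prior count of 2. CPM for the marker sums used plain library totals. Genes named beside the 10 were *Zbtb16*, every called gene and the 6 most abundant of the other induced genes, every called gene and 4 set genes of the receptor pathway, and the 6 most and 3 least correlated with the score, and exceptions are stated. Positions come from Gencode M21 (GRCm38). Alternatives were no surrogate variables, 1, 2 or 4 of them, surrogate variables estimated without the 10 genes, RIN or the replicate number as a covariate, DESeq2 (1.42.0), its size factors, library totals without TMM, no filter, the higher RIN class (9.5 or above) alone, and leaving out each mouse. The fit on the higher RIN class held no surrogate variables. Python 3.11.15 drew the figures.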

Additional observations from a re-analysis of the deposited data

Results flagged for a closer look

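In 1 of the 64 groups of 5 mice examined (32 named genes in each genotype), a mouse stood apart from the rest of its genotype. *Cebpd* was at 4.32 CPM in KO mouse 3, where the nearest other KO mouse had 6.24 CPM and the highest 6.58 CPM, and the gap was 0.848 of the whole range, above Dixon's critical value of 0.71 for 5 samples. About 5% of groups pass this value by chance. KO mouse 3 is also the mouse with 1 Y-linked count, and without it *Cebpd* had a log2 fold change of 0.83 (adjusted p = 0.0285 by edgeR).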

How the results depend on the processing

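The calls of the 10 genes depended on the model. Of the 10, 1 was called without surrogate variables, 2 with RIN in their place, 1 with the replicate block, 0 in the mice with a RIN of 9.5 or above, 2 with 1 surrogate variable and 4 with 2. It was 10 with DESeq2, with its size factors, without TMM, without the filter, with 4 surrogate variables and with those estimated without the 10 genes, and 6 to 10 without 1 mouse each. The 3 calls among the other induced genes went to 0 without surrogate variables, with RIN, with the replicate block, in the mice with a RIN of 9.5 or above, and with 1 or 2 surrogate variables, and lay at 0 to 5 without 1 mouse each. No pathway gene was called in any setting. Only 1 gene had genotypes without overlap, 1 to 4 without 1 mouse each (4 without KO mouse 5, and 2 without KO mouse 2, KO mouse 3 or WT mouse 2). The share of all genes without overlap was not computed with a mouse left out, so nothing is read from those counts. The 13 pairs that passed became 0 when centred within genotype and RIN class, 0 in the mice with a RIN of 9.5 or above, and 4 to 15 without 1 mouse each, lowest without KO mouse 5. The median r over all 45 pairs, 0.653, became 0.214 and 0.365 in those 2 settings, and 0.538 to 0.709 without 1 mouse each. No sign turned in any fit of the 10 genes, *Arl4d*, *Arrdc2* or *Rhob*. The cause of these changes was not tested. The fits without 1 mouse and on the higher RIN class also hold fewer mice, and the latter holds no surrogate variables. Replicate numbers join different mice, and the deviations of same-numbered mice correlated at 0.158, -0.0201, 0.074, -0.0568 and 0.12, so the block has no basis in the design. The variables of the main model are estimated from the same 10 libraries, and 5 mice per genotype in 2 RIN classes leave few arrangements for any test within a class. Over all genes, 121 were called in the main model, 30 without surrogate variables, 38 with RIN, 24 with the block, 233 with DESeq2, 1 in the mice with a RIN of 9.5 or above, 34 with 1 surrogate variable and 57 with 2.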
